A study of Mus musculus with 2 samples.

Results

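The outer dense fibres and the fibrous sheath are the 2 cytoskeletal structures that surround the axoneme of the mammalian sperm tail, and 10 of their genes were followed here among the 43346 genes in the tables. The members were chosen by name: the outer dense fibre genes Odf1, Odf2, Odf3 and Odf4, and the fibrous sheath genes Akap3, Akap4, Fsip1, Fsip2, Ropn1 and Ropn1l. All 10 were found in both libraries by matching gene identifiers to their annotated names. The tissue was the testis of a single male mouse, adult at 10 weeks of age and of the inbred strain C57BL/6J. PolyA mRNA was sequenced in 2 technical replicate libraries of this animal, and the labels place replicate 2 in a later round of work. There was 1 group with no treatment, mutation or second tissue, so no biological contrast could be made, and each SD is over the 2 technical libraries.

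Outer dense fibres run along the outer side of the axonemal doublets through the midpiece and principal piece, and they stiffen the tail and protect it against shear. The fibrous sheath replaces the mitochondrial sheath in the principal piece, where its longitudinal columns and ribs hold protein kinase A and glycolytic enzymes close to the axoneme. The genes of both structures are known to be transcribed in haploid spermatids, whose mRNAs are often stored before they are translated. In whole tissue, fewer cells of a type and less RNA per cell cannot be told apart.

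The expected counts (estimated reads per gene) summed to 31995370 in replicate 1 and 20675521 in replicate 2 after rounding. The tissue label was checked against marker genes: all 6 markers of spermatids and late spermatocytes and all 4 of meiotic germ cells reached 1 TPM, a level scaled for transcript length and for depth, in both libraries. Their summed levels were 9055 and 25490 TPM for the spermatid list, and 2393 and 1075 TPM for the meiotic list, in replicates 1 and 2. Supporting cells were present too, with all 5 Sertoli, all 4 Leydig and all 3 peritubular markers detected. Of the multiciliated cell markers, a type that shares tail genes with sperm, 1 of 4 was detected (Tekt1, at 134 and 408 TPM). The regulators Foxj1 and Mcidas stood at 0.59 and 52.7 TPM and at 0.09 and 0 TPM, and the summed list at 135 and 461 TPM. Of 3 epididymal markers 1 was detected, Crisp1 at 53.8 and 19.3 TPM, while Lcn5 was at 0 in both libraries and Defb20 at 0.18 and 0.43 TPM.

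All 10 genes passed 1 TPM, the limit used for detection, in both libraries, against 54.6% of the 21474 protein-coding genes. All but Odf3 and Fsip2, 8 of the 10, reached 100 TPM in both, a level passed by 1131 protein-coding genes (5.27%). The median of the 10 mean levels was 549 TPM, placed at percentile 99.1 among protein-coding genes, while the median of the detected protein-coding genes was 19.7 TPM. Together the 10 genes held 0.569% of the total TPM in replicate 1 and 1.02% of it in replicate 2.

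By mean level the order was Odf2 (2046 TPM ± 1848, SD, n = 2), Akap4 (1677 ± 558), Odf1 (1332 ± 794), Ropn1l (1175 ± 627), Ropn1 (576 ± 190), Akap3 (522 ± 97.4), Odf4 (241 ± 169), Fsip2 (149 ± 101), Odf3 (123 ± 165) and Fsip1 (122 ± 20.1). The ranges of neighbours over the 2 libraries lay apart at only 2 places, between Ropn1l and Ropn1 and between Akap3 and Odf4. At the other 7 places the ranges overlapped. Odf1 and Ropn1l were among these, although Odf1 was the higher within each library (771 and 732 TPM in replicate 1, 1893 and 1619 TPM in replicate 2). The order therefore resolves 3 tiers: Odf2, Akap4, Odf1 and Ropn1l on top, then Ropn1 and Akap3, then Odf4, Fsip2, Odf3 and Fsip1.

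**Figure D1:**
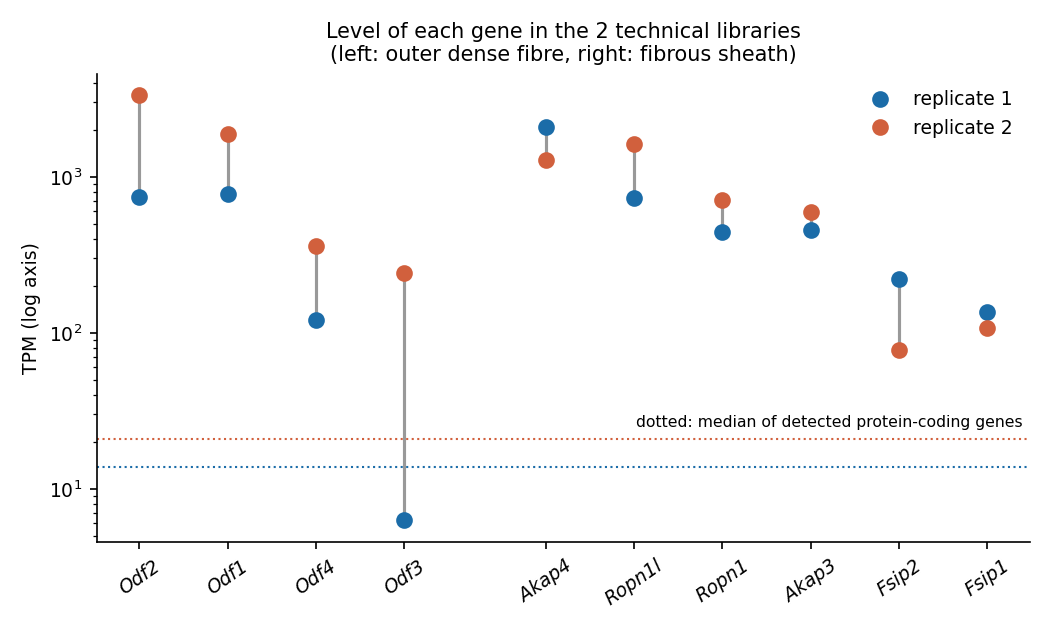
TPM of each gene in replicate 1 (blue) and replicate 2 (orange) on a log axis, with outer dense fibre genes on the left, fibrous sheath genes on the right, and dotted lines at the median of protein-coding genes detected in both libraries. The 4 outer dense fibre genes all lie higher in replicate 2, while Akap4, Fsip1 and Fsip2 lie lower there, and Odf3 in replicate 1 is the single point under the dotted line of its library.

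Odf1 encodes the small cysteine-rich protein of the fibre core, which forms disulphide bonds and carries Cys-X-Pro repeats near its end. The gene (ENSMUSG00000061923.4) lies on the plus strand at chr15:38219203-38226735 (mm10) and has 1 annotated transcript. It stood at 771 TPM in replicate 1 and 1893 TPM in replicate 2, from 15340 and 24003 expected counts. These levels lay at percentiles 99.4 and 99.9 of protein-coding genes.

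The repeat is shown because it sets Odf1 apart from the other members in sequence. It is an unbroken run of 14 units of 3 codons, each a cysteine codon (capitals), any codon and a proline codon, at chr15:38226440-38226565 on the plus strand, read from the GENCODE M21 transcript.
Odf1 repeat: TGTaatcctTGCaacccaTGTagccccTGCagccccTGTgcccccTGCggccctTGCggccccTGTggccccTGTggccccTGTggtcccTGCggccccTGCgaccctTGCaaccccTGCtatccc
In 6 of the 14 units the middle codon is for glycine. Over the coding region, 41 of 248 codons (16.5%) are cysteine codons, which lay at percentile 99.5 of 19513 genes with a complete start, whose median was 2.12%. The other 9 members ranged from 0.787% (Odf3) to 3.69% (Akap4).

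Odf2 encodes the long coiled-coil protein of the fibres, and longer products of the same gene, called cenexin, sit on the appendages of the mother centriole in other cells. The gene (ENSMUSG00000026790.15) lies on the plus strand at chr2:29889221-29931746. Its level was 739 TPM in replicate 1 and 3352 TPM in replicate 2, from 22576 and 78772 expected counts. It was the most abundant of the 10 genes in replicate 2, and it ranked behind Akap4 and Odf1 in replicate 1. On the log2 TPM scale Odf1 over Odf2 was 0.060 in replicate 1 (exact 95% interval 0.031 to 0.090) and -0.82 in replicate 2 (-0.85 to -0.80). The order of these 2 genes therefore turned between the libraries.

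The gene has 25 annotated transcripts, and it was the only one of the 10 whose most abundant transcript differed between the libraries. Odf2-208 held 35.4% of the gene's TPM in replicate 1 and 1.43% in replicate 2. Odf2-201 held 0% and 42.6%. By posterior mean TPM, another estimate in the same tables, Odf2-201 held 4.44% in replicate 1 and Odf2-208 30.4%, so the 0 depends on the estimate used. The 2 transcripts have an identical coding region of 1914 bases and differ in the first exon, which spans chr2:29889785-29889921 in Odf2-208 and chr2:29890063-29890211 in Odf2-201. The transcripts that share that coding region (Odf2-201, Odf2-208 and Odf2-209) together held 35.4% and 48.3% of the TPM.

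Grouped by the end of the first exon, 12 transcripts use the position of Odf2-208 (29889921) and 4 use that of Odf2-201 (29890211). The first group held 561 TPM in replicate 1 and 792 TPM in replicate 2, which was 76% and 23.6% of the gene. The second group held 1.2 and 1633 TPM, or 0.162% and 48.7%, and by posterior mean TPM 4.72% and 48.6%. The remaining 9 transcripts held 176 and 927 TPM. Most of the added level of Odf2 in replicate 2 thus stood in transcripts with the downstream first exon. GC content was 67.9% in the first exon of Odf2-208 and 73.2% in that of Odf2-201, against 53.6% and 54.0% in the whole transcripts, and its part in the difference was not tested. These groups were formed after the transcript values were seen.

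The 3′ end separates fibre-type from cenexin-type transcripts. The 6 transcripts that are complete to the upstream 3′ end held 46.8% of the gene's TPM in replicate 1 and 70.4% in replicate 2. The 6 that run to the downstream end, among them Odf2-206, held 26.2 and 55.3 TPM (3.54% and 1.65%). By expected counts the long forms held 9.12% and 3.45%. The other 13 transcripts are partial models that were assigned to neither end, and they held 49.7% and 27.9% of the TPM. Transcripts annotated as non-coding processed transcripts held 23.9% and 24.5%.

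Odf2 transcripts also differ by a block of 57 bases at the end of a coding exon, chr2:29893513-29893569 on the plus strand, which adds codons without shifting the frame. It is shown because its use, unlike that of the first exon, kept the same order in both libraries.
Odf2 block: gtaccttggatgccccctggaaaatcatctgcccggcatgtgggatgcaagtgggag
Transcripts that lack the block held 66.1% of the gene's TPM in replicate 1 and 56.1% in replicate 2, and transcripts that carry it held 15.5% and 23.8%. The rest do not cover the exon.

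Odf3 encodes a tail protein with repeated proline-rich motifs. The gene (ENSMUSG00000025482.7) lies on the plus strand at chr7:140847805-140851018. Its level was 6.26 TPM in replicate 1, from 143 expected counts, and 240 TPM in replicate 2, from 3243. This is the widest separation among the 10 genes, and the gene moved from percentile 63.0 of protein-coding genes to percentile 96.3. Odf3-201 led in both libraries with 77.7% and 92.1% of the TPM, and the intron-retaining Odf3-203 held 22.3% and 7%.

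Odf4 encodes a membrane-associated tail protein. The gene (ENSMUSG00000032921.9) lies on the minus strand at chr11:68921835-68927081. It stood at 121 TPM in replicate 1 and 360 TPM in replicate 2, from 2282 and 4254 expected counts. The transcript with the largest share in both libraries was Odf4-203, which is annotated as a target of nonsense-mediated decay, at 53.3% and 68% of the TPM. The protein-coding transcripts Odf4-201 and Odf4-202 held 34.4% and 26.5% between them. Of these, Odf4-201, with 870 coding bases, held 30.2% and 13.4%. The shorter Odf4-202, with 531 coding bases, held 4.24% and 13.0%.

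Besides a start further upstream, Odf4-203 has 22 bases more than Odf4-201 at the end of an exon, at chr11:68922819-68922840. They are shown on the minus strand because they hold the stop codon (capitals) that ends the reading frame.
Odf4 extension: gtgccccccagctcTGAaaaag
With this extension the frame ends after 178 codons, against 290 in Odf4-201. The protein-coding Odf4-202 has its 3′ end at 68922819, the last of these bases on the minus strand. Its 531 coding bases are close to the 534 of Odf4-203. Whether Odf4-202 also holds the extension and its stop codon was not tested. Reads were assigned to transcripts by estimation, so these shares carry the uncertainty of dividing reads among similar models.

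**Figure D2:**
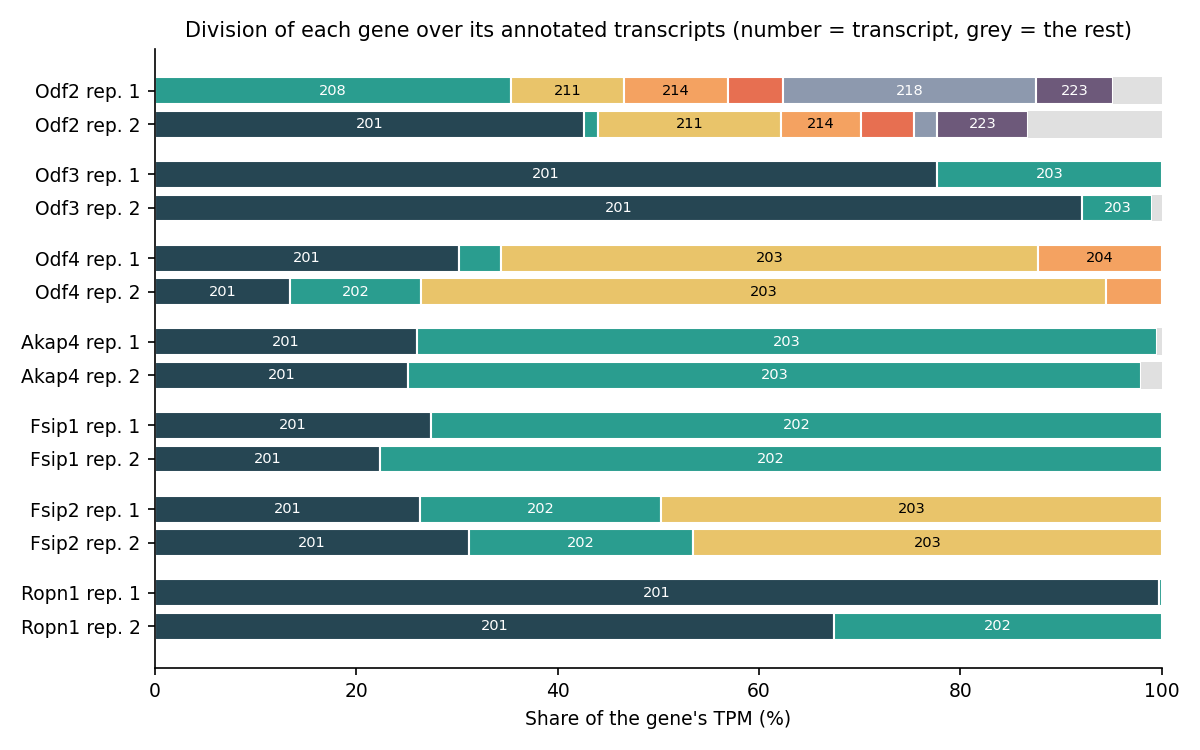
Share of the gene's TPM (%) held by each annotated transcript in replicates 1 and 2 for the 7 genes with more than 1 transcript; coloured segments are transcripts that reach 5% in either library, labelled by number where they fit, and grey is the rest. The leading segment of Odf2 changes from 208 (35.4%) to 201 (42.6%), while the other 6 genes keep theirs.

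Akap4 encodes the most abundant protein of the fibrous sheath, an anchor for protein kinase A that is made as a precursor and clipped during sheath assembly. The gene (ENSMUSG00000050089.9) lies on the plus strand at chrX:7067519-7078609. Its level was 2072 TPM in replicate 1 and 1283 TPM in replicate 2, from 119322 and 46823 expected counts, the largest count of any of the 10 genes in replicate 1. Its transcripts fall on 2 first exons. The upstream exon (chrX:7067519-7067656) opens Akap4-201, with 26.1% and 25.2% of the TPM, and Akap4-202, with 0.520% and 2.06%. The downstream exon (chrX:7068213-7068355) opens Akap4-203, which held the remainder, so the split between first exons moved little between these libraries, in contrast to Odf2.

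Akap3 encodes the other anchoring protein of the sheath, which binds both Akap4 and the ropporins. The gene (ENSMUSG00000030344.8) lies on the plus strand at chr6:126853098-126874308 and has 1 annotated transcript. It stood at 453 TPM in replicate 1 and 591 TPM in replicate 2, from 29130 and 24047 expected counts. Within a library, Akap4 exceeded Akap3 by 2.19 on the log2 TPM scale in replicate 1 (exact Clopper-Pearson 95% interval 2.17 to 2.21) and by 1.12 in replicate 2 (1.10 to 1.14). The ratio was thus 4.57 in one library and 2.17 in the other, above 1 in both. Such intervals cover counting error only.

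The sequences just before both anchoring genes are shown because they share an exact run of 20 bases (capitals), noticed after the sequences had been read. They come from the RefSeq promoter table (GRCm38), plus strand, at chr6:126853008-126853097 and chrX:7067425-7067514.
Akap3 upstream: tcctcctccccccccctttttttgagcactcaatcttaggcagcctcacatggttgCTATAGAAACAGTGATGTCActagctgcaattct
Akap4 upstream: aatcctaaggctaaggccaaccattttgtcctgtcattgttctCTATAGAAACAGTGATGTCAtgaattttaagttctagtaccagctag
The run lies from 34 to 15 bases before the start of Akap3 and from 47 to 28 bases before the start of Akap4 in that table, which lies slightly upstream of the GENCODE start given above. Searched on both strands over the 32851 windows in the table (250 bases before to 50 after each start), it occurred in 2, those of these 2 genes. The run was taken as the longest exact match between the 250 bases before these 2 starts, so its presence in both was fixed. No other pair of windows was searched in this way. The last 8 bases of the run, TGATGTCA, occurred in 3.62% of windows and in none of the other 6 members listed there. The window at the downstream first exon of Akap4, which opens its most abundant transcript, does not hold the run.

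Of the 10 genes, 8 had entries in that table (12 windows in all), and Odf1 and Fsip1 had none. The full cyclic AMP response element TGACGTCA, searched on both strands, was in none of the members' windows, against 1.79% of all windows. Its core TGACG, which the full element contains, was in windows of Fsip2 and Odf2, against 20.8% of all. The TATA box TATAAA was in none, against 13.6% of all. GC content of the windows ran from 38.3% (the upstream start of Akap4) to 74.3% (Odf2), with a median over all windows of 52.7%.

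Fsip1 and Fsip2 encode fibrous sheath interacting proteins, named for their binding to Akap4. Fsip1 (ENSMUSG00000027344.9) lies on the minus strand at chr2:118130424-118256966 and stood at 136 TPM in replicate 1 and 108 TPM in replicate 2, from 3863 and 1991 expected counts. Fsip2 (ENSMUSG00000075249.8) lies on the plus strand at chr2:82943634-83008937 and stood at 220 and 77.7 TPM, from 55018 and 11757 counts. The order of this pair turned between libraries: on the log2 TPM scale Fsip1 over Fsip2 was -0.69 in replicate 1 (-0.74 to -0.65) and 0.47 in replicate 2 (0.40 to 0.54).

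Fsip2 is the longest of the 10 genes in its transcript, and reads and level give different pictures of it. Its full-length form Fsip2-203 has 21116 bases and 6995 codons. That form held 90.3% of the gene's expected counts in replicate 1 and 88.3% in replicate 2, but 49.7% and 46.6% of its TPM, since the shorter Fsip2-201 and Fsip2-202, both annotated as targets of nonsense-mediated decay, weigh more per read. Of the summed counts of the 10 genes, Fsip2 took 20.7% and 5.42%, but of their summed TPM 3.87% and 0.760%. In Fsip1 the longer form Fsip1-202 led with 72.6% and 77.7% of the TPM.

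**Figure D3:**
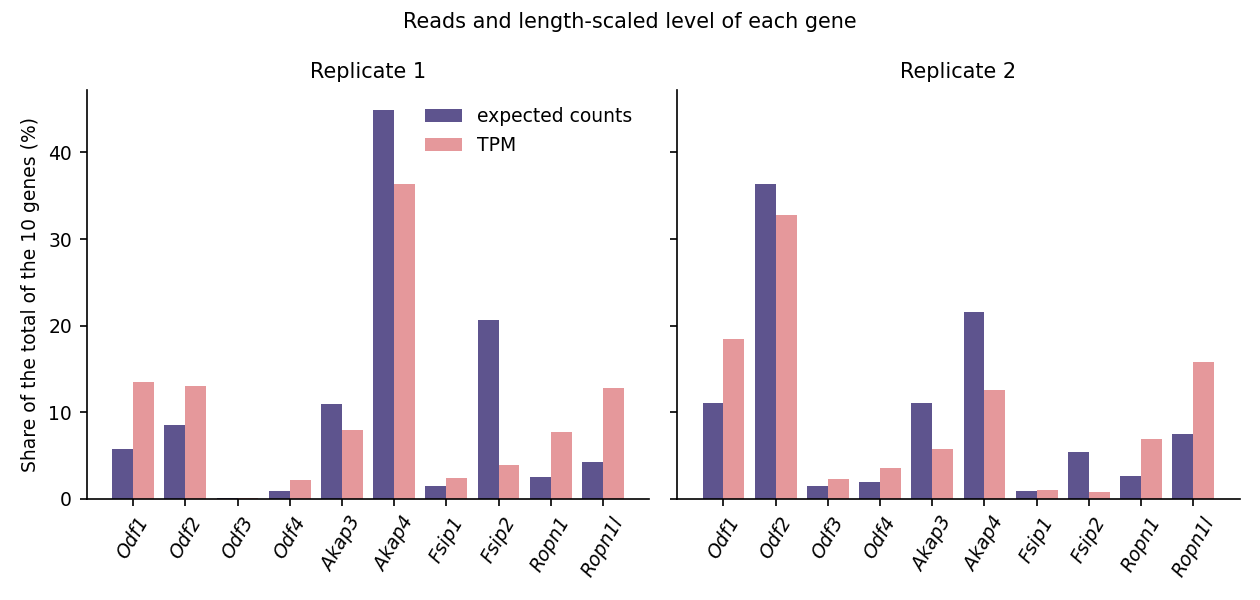
Share of each gene in the summed expected counts (purple) and in the summed TPM (pink) of the 10 genes, in % from 0, for replicate 1 (left) and replicate 2 (right). Fsip2 takes 20.7% of counts but 3.87% of TPM in replicate 1, and Odf2 replaces Akap4 as the tallest bar in replicate 2.

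Ropn1 (ropporin) and Ropn1l encode small proteins with a domain like that of the kinase regulatory subunit, through which they dock on Akap3. Ropn1 (ENSMUSG00000022832.6) lies on the plus strand at chr16:34649921-34678618 and stood at 441 TPM in replicate 1 and 710 TPM in replicate 2, from 6574 and 5815 expected counts. Ropn1l (ENSMUSG00000022236.9) lies on the minus strand at chr15:31441211-31453737 and stood at 732 and 1619 TPM, from 11474 and 16203 counts. Ropn1l was the higher of the 2 in both libraries: Ropn1 over Ropn1l was -0.73 (-0.77 to -0.69) in replicate 1 and -1.19 (-1.23 to -1.15) in replicate 2 on the log2 TPM scale. The longest identical stretch between their coding regions was 14 bases, and the posterior SD of the counts of both was 0, so reads were not divided between them in the deposited estimates. Ropn1-201 held 99.8% of the TPM of Ropn1 in replicate 1 and 67.4% in replicate 2, with the rest in Ropn1-202, a shorter model that starts upstream of Ropn1-201 and ends before it does.

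The counts of the other 8 members carried little ambiguity either. The posterior SD was 0 for all of them except Fsip1, where it was 0.12 and 0.09 counts. There are 4 annotated genes that overlap a member (Gm23865 in Odf2, Gm22800 and Gm29232 in Fsip1, Gm6361 in Ropn1l), and each was at 0 TPM in both libraries.

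The 2 libraries gave different balances of the 2 structures. The 4 outer dense fibre genes summed to 1637 TPM in replicate 1 and 5845 TPM in replicate 2, a ratio of 3.57. The 6 fibrous sheath genes summed to 4054 and 4388 TPM, a ratio of 1.08. Outer dense fibre over fibrous sheath was therefore 0.404 in replicate 1 and 1.33 in replicate 2. Neither sum stands for each of its genes. Odf2, at 739 and 3352 TPM, had the largest absolute gain in TPM of the 4 outer dense fibre genes. Odf3, at 6.26 and 240 TPM, had the largest ratio of the 4. Within the sheath, Akap4 (2072 and 1283 TPM), Fsip1 and Fsip2 were lower in replicate 2. Ropn1l (732 and 1619 TPM), Ropn1 and Akap3 were higher there. The marker list of spermatids and late spermatocytes also had a larger sum in replicate 2 (9055 and 25490 TPM), of which Prm1 (3011 and 10087 TPM) and Tnp1 (1008 and 9611 TPM) held most there. Its median log2 ratio was -0.06, and its part in the balance was not tested.

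Each gene was tested between the libraries by an exact two-sided conditional binomial test on rounded expected counts, with libraries scaled by TMM (edgeR). Called genes had a Benjamini-Hochberg adjusted p under 0.05 over the 18589 genes whose mean reached 10 counts, and a ratio of 2 or more. The test compares the reads of 2 libraries of 1 animal, so a call says nothing of conditions or animals. All 10 members passed the count minimum. Of them 5 were called, 3 higher and 2 lower in replicate 2, against 55.8% of all genes tested (32.1% higher and 23.7% lower), so the members' share was close to the background. Their median log2 ratio was 0.50, beside 0.00 for all genes tested.

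Higher in replicate 2 were Odf3, by 4.84 on the log2 scale, Odf2, by 2.14, and Odf4, by 1.24 (adjusted p = 4.19e-252, exact binomial test). Lower were Fsip2, with a log2 ratio of -1.89, and Akap4, with -1.01, the latter just past the limit and lost under 2 other scalings. Not called were Odf1 (0.98), Ropn1l (0.84), Ropn1 (0.16), Akap3 (0.06) and Fsip1 (-0.62). Odf1 fell just short of the ratio limit and Akap4 just passed it, so the count of 5 rests on small distances for these 2 genes. With libraries scaled by plain totals, which moves the median log2 ratio of all genes to 0.29, 5 members were called higher and 1 lower. Of all genes tested, 36.2% were then called higher and 15.3% lower, and the higher share of all calls went from 57.5% to 70.3%.

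The ratio between the libraries followed the GC content of the transcript. Across the 10 members Spearman's rho between GC content and log2 ratio was 0.92, and across 18404 tested genes it was 0.89, both as descriptions over genes that share the same 2 libraries. Fsip2, at 37.3% GC, had the lowest ratio of the 10, and Odf3, at 56.7%, the highest. The outer dense fibre genes lay between 51.4% and 56.7% GC, and the fibrous sheath genes between 37.3% and 55.5%. The balance of the 2 structures and the base composition of their genes thus moved together, and the part of base composition was not tested beyond the ratios that follow.

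When each ratio was taken relative to genes of similar GC content (100 bins), the members moved closer together. Odf2 came to 0.42, Odf4 to 0.58 and Fsip2 to -0.17, none of them called. Odf3 stayed called at 1.67. Ropn1l, at 55.5% GC, turned from 0.84 to -1.32 and was called lower, and Akap3 turned from 0.06 to -0.18 without a call. With 1 called higher and 1 lower, 2 of 10 members were called, against 19.6% of all genes tested this way (10.9% higher and 8.7% lower). The members' median was 0.10, beside 0 for all genes. Odf3 and Ropn1l are thus the members whose 2 libraries differed most from other genes of their base composition. For Ropn1l the GC content was that of the GENCODE M21 transcript, which has 957 bases against 910 in the deposited values. The effect of this mismatch on its ratio was not tested.

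**Figure D4:**
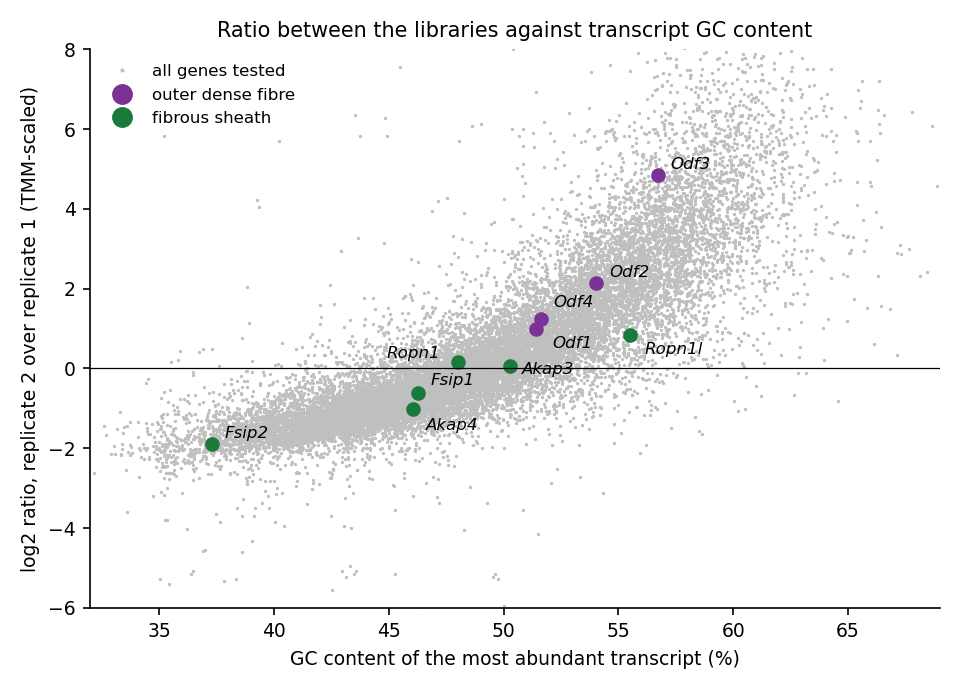
Log2 ratio of replicate 2 over replicate 1 (TMM-scaled) against the GC content (%) of each gene's most abundant transcript, with all genes tested in grey, outer dense fibre genes in purple and fibrous sheath genes in green; genes beyond the axes are not drawn. The members run from Fsip2 (37.3% GC, -1.89) to Odf3 (56.7% GC, 4.84) along the grey band, with Ropn1l (55.5% GC, 0.84) under it.

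By level over the 2 libraries, the protein-coding genes nearest to the highest outer dense fibre gene, Odf2, were Dbil5 (1305 and 2802 TPM), Eef1a1 (1375 and 2872 TPM) and Ybx2 (1318 and 2322 TPM). Those nearest to the highest fibrous sheath gene, Akap4, were Morf4l1 (2172 and 1430 TPM), Mael (2334 and 1108 TPM) and Cmtm2a (1742 and 1124 TPM). Nearness is the Euclidean distance in log2(TPM + 1) over 2 libraries, which ran from 0.86 to 0.99 for Odf2 and from 0.17 to 0.31 for Akap4. No gene therefore matched Odf2 as closely as several matched Akap4.

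Beyond the 10 genes, 38 genes related to them by name, binding or place in the sheath were described by role. Of these, 33 were detected and 37 passed the count minimum, and 12 were called higher, 7 lower and 18 not in replicate 2, beside the 32.1% higher and 23.7% lower of all genes.

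Among the 4 relatives named after outer dense fibre proteins, 2 were detected. Odf3l1 stood at 33.5 and 123 TPM and was called higher, and Odf2l, named for its likeness to Odf2, stood at 52.4 and 23.6 TPM and was called lower, although relative to genes of similar GC its ratio turned to 0.24, and that of Odf3l1 was 0.27 without a call. Odf3b had 0 counts in replicate 1 and 265 in replicate 2, which is at least 112-fold higher against a floor of 3 counts in replicate 1, and it stayed called relative to genes of similar GC. Odf3l2 was at 0 in both libraries. In replicate 1, where Odf3 itself was low, Odf3b thus had no counts while Odf3l1 had 649.

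Of the 6 genes whose proteins are reported to bind or modify outer dense fibre proteins, 5 were detected and 4 were called higher. Oaz3, the testis antizyme, was the most abundant at 1210 and 1971 TPM and was not called. Spag4, a nuclear envelope protein that binds Odf1, stood at 12.4 and 347 TPM, Tssk4, a testis kinase, at 28.9 and 117 TPM, and Ccdc42, needed for tail formation, at 73.5 and 130 TPM, all 3 called higher. Klc3, the kinesin light chain that binds Odf1, had 1 and 423 counts, a ratio of 535 with an exact interval of 95.4 to 21164. Spag5, a spindle protein, stood at 37.1 and 75.6 TPM without a call. Relative to genes of similar GC, 1 of the 6 was called higher, and Oaz3 and Ccdc42 turned to -0.75 and -0.12.

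The 3 other sheath genes all had log2 ratios below 0. Among the sheath members, Akap4, Fsip1 and Fsip2 also lay below 0, while Akap3, Ropn1 and Ropn1l lay above it. Spa17, which shares the docking domain of the ropporins, was more abundant than any of the 10 members in replicate 1, at 3157 and 1478 TPM, and was called lower. Fscb, a binding partner of Cabyr, stood at 305 and 186 TPM and was called lower. Cabyr, a calcium-binding sheath protein with the same docking domain, stood at 1011 and 434 TPM and was not called. Their median log2 ratio was -1.04, and -0.24 relative to genes of similar GC, where none was called.

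Of the 13 other A-kinase anchoring protein genes, 11 were detected, with 2 called higher and 2 lower (Akap11 and Akap14, named after their values were seen). The 4 most abundant were Akap12, a membrane-associated scaffold, at 318 and 673 TPM, Akap1, of the outer mitochondrial membrane, at 70.4 and 384 TPM, Akap10 at 66.7 and 39.0 TPM, and Akap8l at 19.5 and 54.6 TPM. Akap12 was thus at a level near that of Akap3, and the median of the 13 genes was 20.3 TPM. Akap1 and Akap8l were called higher, and relative to genes of similar GC Akap1 stayed so at 1.59 while Akap8l turned to -0.90, and Akap11 (-0.15) and Akap14 (-0.79) lost their calls.

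All 6 protein kinase A subunit genes were detected. Prkar2a, a type II regulatory subunit and one of those that the sheath anchors bind, led at 551 and 265 TPM and was not called. The other type II subunit, Prkar2b, stood at 12.9 and 7.02 TPM and was called lower. The type I subunits Prkar1a and Prkar1b stood at 105 and 120 TPM and at 1.32 and 3.24 TPM. Of the catalytic subunits, Prkaca stood at 22.0 and 74.2 TPM and was called higher, and Prkacb at 11 and 6.65 TPM and was called lower. Relative to genes of similar GC the signs of Prkaca (-0.83), Prkar2a (0.50), Prkar2b (0.26), Prkar1a (0.56) and Prkar1b (-1.23) turned, Prkar1b was then called lower, and Prkacb (-0.26) lost its call.

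The 6 glycolytic enzymes associated with the sheath were all detected, with a median of 693 TPM. Ldhc, the testis lactate dehydrogenase, stood at 2850 and 4131 TPM, Pgk2, the testis phosphoglycerate kinase, at 1294 and 1045 TPM, and Gapdhs, the sheath glyceraldehyde dehydrogenase, at 483 and 1893 TPM. Aldoart1, a retrogene aldolase, stood at 82.3 and 106 TPM. The broadly expressed Aldoa stood at 16.9 and 416 TPM and Tpi1 at 32.3 and 377 TPM. Gapdhs, Aldoa and Tpi1 were called higher; relative to genes of similar GC, Aldoa (1.54) and Tpi1 (1.92) stayed so while Gapdhs turned to -0.81 and Pgk2 to 0.32.

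**Figure D5:**
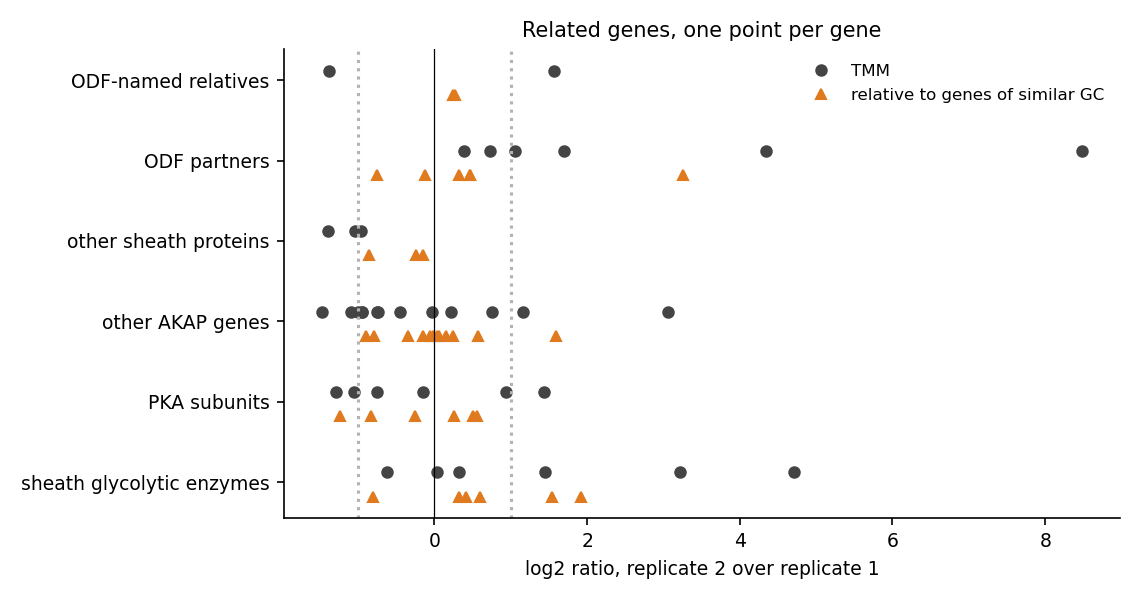
Log2 ratio of replicate 2 over replicate 1 for each related gene by role, scaled by TMM (dark circles) and relative to genes of similar GC content (orange triangles); dotted lines mark the ratio limit of 2, and genes with 0 counts in replicate 1 or under the count minimum are not drawn. The triangles lie closer to 0 than the circles in most lists, with Klc3 (8.48 and 3.26) the farthest point.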

How the data were processed

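PolyA mRNA of 1 mouse testis was measured in 2 technical libraries (replicates 1 and 2 of the labels). Per the deposited notes, values were estimated for each library separately from transcriptome alignments on mm10 with annotation M4; which aligner and program were used is not given in the sources used here. Expected counts, as the authors deposited them, need not be whole and were rounded. The authors also deposited TPM, FPKM, the percent of a gene's TPM in each transcript, and the bounds of a TPM interval, treated here as a score and not used in results. Names, coordinates and sequences came from GENCODE M21 and RefSeq tables on the same assembly (42462 of 43346 genes matched). The quasi-likelihood test of edgeR could not be fitted with 1 library a side, so counts were compared by an exact conditional binomial test, called at a ratio of 2 and adjusted p under 0.05, after TMM scaling (edgeR 4.0.16, factors 0.904 and 1.11); log2 ratios have 0.5 added to each count. The script was tested on simulated data. All members were named, every gene of related lists of up to 6 and the 4 of highest TPM in longer lists, and the 3 genes nearest in level to the highest gene of each structure. Members and lists were chosen with earlier results of these data known. Alternatives covered scaling (totals, DESeq2 1.42.0 size factors), the ratio limit, the count minimum, an assumed coefficient of variation, GC bins, units and leaving out a library. The 2 libraries are of 1 animal, so spreads and tests are technical, and depth leaves a counting error of 8.36% for Odf3 in replicate 1 and at most 2.24% elsewhere.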

Additional observations from a re-analysis of the deposited data

How the results depend on the processing

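Detection of all 10 genes, the pairs Akap4 over Akap3 and Ropn1 over Ropn1l, and the count of 9 genes with the same leading transcript kept their value or direction under each alternative run. The percentile of the members' median, 99.1, was 98.4 among detected genes and ranged from 98.7 to 99.2 when a library was left out. Members called higher, 3, became 5 with plain totals, 4 with DESeq2 size factors, 5 at a ratio of 1.5, 2 at a ratio of 4 and 1 with GC bins. In the same order, 36.2%, 32.4%, 37.2%, 20.9% and 10.9% of all genes tested were called higher. Members called lower, 2, became 1 with plain totals, 1 with DESeq2 size factors, 3 at a ratio of 1.5, 0 at a ratio of 4 and 1 with GC bins. The shares of all genes tested that were called lower were 15.3%, 22.75%, 33.7%, 2.70% and 8.7%. Akap4 lost its call with plain totals (-0.72), DESeq2 size factors (-0.98) and GC bins (-0.36). Odf1 gained one with plain totals (1.28) and DESeq2 size factors (1.02). Ropn1l was called higher with plain totals (1.13) and lower with GC bins (-1.32), and the cause was not tested. In TPM, where no test was run, the log2 ratios were -0.69 for Akap4, 1.30 for Odf1 and 1.15 for Ropn1l. The comparison with posterior mean TPM for the first exons of Odf2 was chosen after seeing the data. The mean log2 ratio of Odf1 over Odf2, -0.38, was -1.14 in counts without length scaling and was from -0.82 to 0.060 when a library was left out. Fsip1 over Fsip2, -0.11, was -3.20 in counts and ranged from -0.69 to 0.47. No paired analysis was possible because there is 1 group. No group had enough libraries for a check of outlying samples. With 1 animal, variation between animals was not measured.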
